A study of Mus musculus with 6 samples.

Results

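NAD is the molecule from which poly(ADP-ribose) polymerases (PARPs) take the ADP-ribose units that they add to proteins, and poly(ADP-ribose) glycohydrolase (PARG) removes the chains again. Each ADP-ribose unit added sets a nicotinamide free, and most mammalian cells turn this nicotinamide back into NAD by salvage: Nampt makes nicotinamide mononucleotide from it, and an Nmnat enzyme joins that product to AMP. Cells can also enter the route from nicotinamide riboside through Nmrk1, from nicotinic acid through Naprt and Nadsyn1, or from tryptophan by de novo synthesis, which is mainly a liver and kidney route. Nadk and Nadk2 phosphorylate NAD to NADP in the cytosol and in mitochondria, and Nnmt methylates nicotinamide, which takes it out of the cycle. The genes described here are the mouse genes of these enzymes, taken by name: Nampt, Nmnat1, Nmnat2, Nmnat3, Nmrk1, Naprt, Nadk, Nadk2, Nadsyn1 and Nnmt. All 10 were found among the 41819 genes of the deposited table, and 8 of them had enough counts to be tested.

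The 6 samples were poly(A) RNA from a single puromycin-resistant clone of Swiss albino mouse 3T3 embryo fibroblasts, which the labels class as malignant. By the labels, every sample, control included, carried the lentiviral TetOne cassette for human PARG (hPARG) with the fluorescent reporter mClover3, and by the methods all grew under puromycin. The methods name the construct of the sequenced clone without the reporter, and elsewhere the study calls the controls non-transfected. The 3 hPARG dishes received 500 ng/ml doxycycline for 72 h and the 3 control dishes received none, so hPARG and doxycycline itself cannot be told apart here, and results from 1 clone need not hold for others. The labels speak of wells, while the methods describe dishes split from a common culture of the clone, so the tests measure the spread between dishes of that culture only. Here the comparison asks whether the genes that supply the PARP substrate changed when the enzyme that removes poly(ADP-ribose) was induced.

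The gene counts of a dish summed to between 21619908 and 25263818, and a floor of 3 counts corresponds to 0.119 to 0.139 CPM (counts scaled to library size). All other CPM values were also scaled with TMM factors, edgeR's correction for differences in RNA composition. All 8 fibroblast markers examined passed the filter on low counts, with a summed level of 6582 to 7292 CPM in control and of 7326 to 8144 CPM in hPARG dishes. The markers went both ways: the groups did not overlap for 4 of the 8 (9.62% of all tested genes). Of these 4, Col1a1, Col3a1 and Thy1 had log2 fold changes of 0.58, 0.39 and 0.30 and Pdgfra of -0.40. Without a block, edgeR called 0 of the 8, with 4 at an unadjusted p under 0.05. With the replicate number as a block in the model, the same 4 were called, where 2.87% of all tested genes were. Without the dishes numbered 2, Col1a1 alone of the 8 was called, where 0.345% of genes were. In bulk RNA, fewer cells of a type and less RNA per cell cannot be told apart. Among leukocyte markers, Adgre1 and Cd3e had 0 counts in every dish, Itgam had 4 to 8 and Cd68 had 11 to 23. The summed markers of epithelium and of endothelium reached at most 1.04 and 1.33 CPM in any dish. The 3 hepatocyte markers summed to between 1.36 and 6.88 CPM. The dishes numbered 2 in both groups stood apart from the others: their deviations from the group means correlated with r = 0.61 across 11509 genes, so results are also given without these 2 dishes.

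In hPARG cells, none of the 8 tested NAD genes differed from control beyond the spread between dishes. The differences ran from a log2 fold change of -0.06 for Nampt to 0.17 for Nadsyn1, with 5 positive and 3 negative values. By edgeR's quasi-likelihood test 0 of the 8 genes had a false discovery rate (FDR, over all tested genes) under 0.05, where 0.0869% of the 11509 tested genes did. No member passed an unadjusted p of 0.05 either (0 of 8), as 455 of the 11509 tested genes did. DESeq2 called 0 of the members, also with 0 under an unadjusted p of 0.05, and 52 genes in all. The FDR was 0.999 for each of the 8. Their median log2 fold change was 0.05, beside 0.004 over all tested genes, and their median absolute log2 fold change was 0.062, beside 0.0931. In none of the 8 (0) did the CPM values of the 2 groups separate without overlap, as they did for 9.62% of tested genes. Without the dishes numbered 2, 0 members were called, where 0.345% of 11589 genes were. With the replicate number as a block in the model, the median standard error of the members went from 0.163 to 0.108. Over all tested genes it went from 0.148 to 0.0756, so the members were measured less precisely than the median gene in both models. With the block 0 of the members were called, where 2.87% of the genes were, and 0 had an unadjusted p under 0.05. Their lowest FDR was then 0.486 (Nnmt).

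The intervals say how large a change these dishes leave room for. For each of the 8 genes the 95% interval of the log2 fold change lay within ±0.847, which is less than a 2-fold change in either direction. The narrowest was that of Nadk, from 0.859-fold to 1.13-fold, and the widest that of Nmnat2, from 0.661-fold to 1.80-fold. Nampt lay between 0.767-fold and 1.20-fold. Without the dishes numbered 2 the interval of Nmnat2 reached a log2 fold change of 1.39, so that a 2-fold rise of this gene was then no longer outside it, while the other 7 stayed inside ±1.

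**Figure D1:**
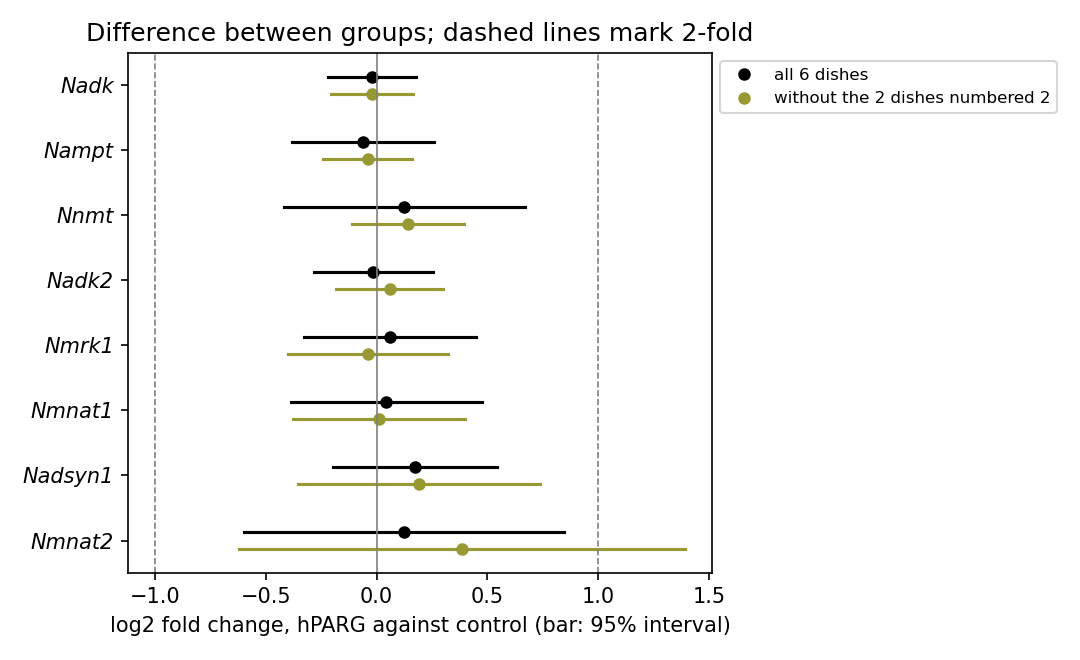
The log2 fold change of hPARG against control (x axis) is plotted for the 8 tested genes with its 95% interval, from all 6 dishes (black) and without the 2 dishes numbered 2 (olive). All black intervals cross 0 and stay inside the dashed lines at 2-fold, and the olive interval of Nmnat2 reaches 1.39.

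In level the genes covered a wide range. Levels between genes were compared in the deposited RPKM (reads per kilobase of gene length, scaled to library size), averaged over all 6 dishes. Nadk was the highest at 42.4 RPKM, followed by Nampt at 24.5, Nnmt at 16.8 and Nadk2 at 11.0 RPKM. Among these 4 genes the ranges over the dishes of neighbours in this order did not overlap. Below them came Nmrk1 at 2.97 and Nmnat1 at 2.33 RPKM, whose ranges overlapped, and Nadsyn1 at 1.31 RPKM. Nmnat2 at 0.251 and Naprt at 0.121 RPKM overlapped as well, and Nmnat3 had a single count in all 6 dishes together. Nadk lay above 96.4% of all genes in the table and Nampt above 93.8%. These shares are over all 41819 genes, of which only 11509 passed the filter on low counts. Even Nmnat3, with its single count, lay above 60.9% of them. The order depends in part on the gene length used: with counts per kilobase of annotated exon, the ranges of Nnmt (8.85 to 14.3) and Nadk2 (8.31 to 10.6) overlapped, and Nmnat1 (2.54) came before Nmrk1 (2.22).

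**Figure D2:**
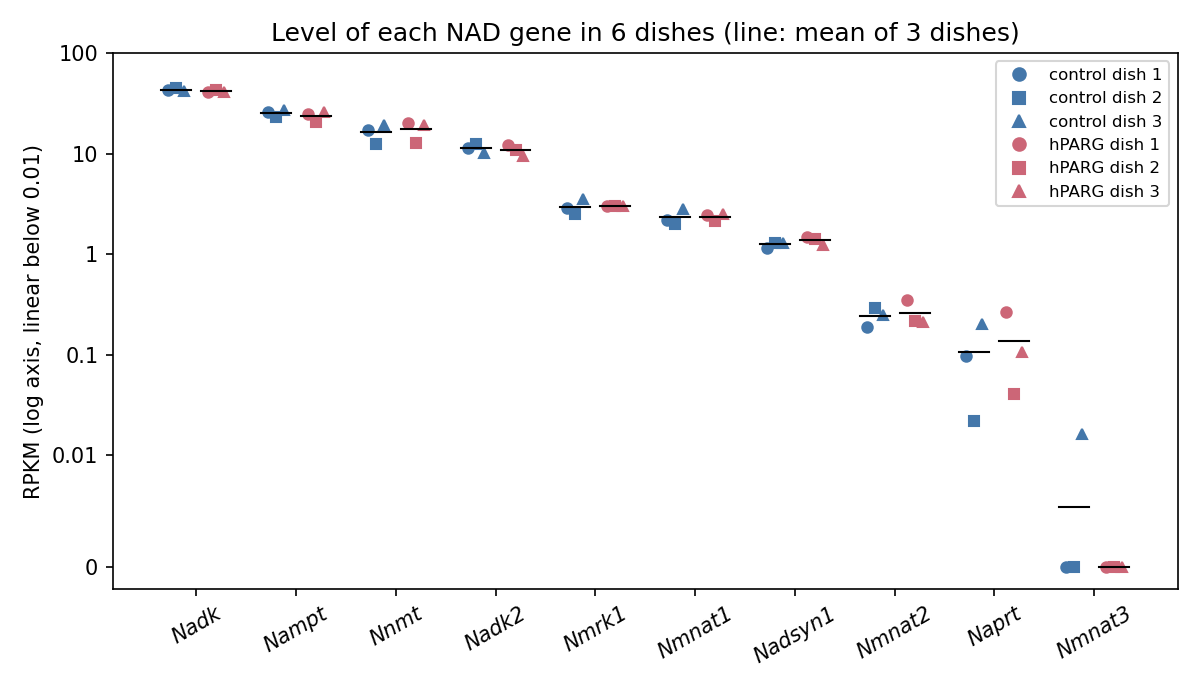
RPKM (y axis, a log scale that turns linear below 0.01) is plotted for each gene in the 3 control (blue) and 3 hPARG (red) dishes, with lines at the group means. The genes run from Nadk, at 40.95 to 44.6 RPKM, down to Nmnat3, with a single dish above 0, and the groups overlap for every gene.

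The bases before the transcription start are shown for Nampt, the entry enzyme of salvage, and for the nuclear Nmnat1 and the mitochondrial Nmnat3, which had the highest and lowest level among the Nmnat genes. Each is the 250 bases upstream of a RefSeq start (GRCm38.p6), 5′ to 3′ on the strand of the gene, with CG dinucleotides in capitals. Nampt lies at chr12:32820085-32820334 (plus strand), Nmnat1 at chr4:149485211-149485460 (minus strand) and Nmnat3 at chr9:98296320-98296569 (plus strand). The Nampt and Nmnat3 windows lie inside the annotated genes, whose outermost starts are further upstream, at 32819545 and 98287435.
Nampt: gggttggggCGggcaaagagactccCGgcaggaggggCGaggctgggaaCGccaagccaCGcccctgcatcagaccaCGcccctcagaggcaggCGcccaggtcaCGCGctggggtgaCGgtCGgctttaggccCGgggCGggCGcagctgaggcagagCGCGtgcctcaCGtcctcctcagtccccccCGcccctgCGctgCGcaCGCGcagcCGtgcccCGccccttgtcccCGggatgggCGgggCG
Nmnat1: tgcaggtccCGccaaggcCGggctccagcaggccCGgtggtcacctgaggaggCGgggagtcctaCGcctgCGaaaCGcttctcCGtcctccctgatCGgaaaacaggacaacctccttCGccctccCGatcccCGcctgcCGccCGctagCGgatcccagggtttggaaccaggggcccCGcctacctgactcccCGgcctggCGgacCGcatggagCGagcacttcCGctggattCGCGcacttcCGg
Nmnat3: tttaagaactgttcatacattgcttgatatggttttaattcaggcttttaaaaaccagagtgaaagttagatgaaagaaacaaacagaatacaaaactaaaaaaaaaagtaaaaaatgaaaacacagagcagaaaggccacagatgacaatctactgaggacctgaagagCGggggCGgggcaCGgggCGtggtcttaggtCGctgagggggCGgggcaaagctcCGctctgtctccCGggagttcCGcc
The windows hold 27, 24 and 9 CG dinucleotides, beside a median of 6 over all 32851 promoter windows. As many as in Nampt occur in 8.56% of these windows, as many as in Nmnat1 in 11.98% and as many as in Nmnat3 in 40.3%. CG number did not follow RNA level throughout, since a Nadk window held 4 and the other Nadk window 18. The tables used gave 9 windows for 7 of the 10 genes, of which a pair for Nmnat1 overlap. The kB consensus motif of NF-kB, searched by name on both strands, matched 0 of the 9 windows, where 7.25% of all windows hold a match. The letters CACGTG (E-box, its own reverse complement) matched 1, a Nadk window, where 6.02% of all windows do. A match or its absence says only that these letters are or are not in the window.

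Salvage starts with Nampt (ENSMUSG00000020572, GRCm38 chromosome 12, 32819545 to 32853349), the rate-limiting enzyme of the route. Its level was 136, 119 and 151 CPM in control dishes 1 to 3 and 134, 110 and 144 CPM in hPARG dishes 1 to 3. The groups overlapped almost entirely, and within each group the dish numbered 2 was the lowest. The means were 135 ± 16.2 and 129 ± 17.4 CPM (SD, n = 3). On the log2 scale the hPARG cells differed by -0.06 (standard error 0.138). Without the dishes numbered 2 it was -0.04 (standard error 0.0925).

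The Nmnat enzymes carry out the last step of NAD synthesis from nicotinamide or nicotinamide riboside, in different compartments. Nmnat1 works in the nucleus, Nmnat2 at the Golgi apparatus and in the cytosol, and Nmnat3 in mitochondria. Nmnat1 (ENSMUSG00000028992, chromosome 4, 149467572 to 149485202) was at 7.03, 6.24 and 9.615 CPM in the control dishes and at 8.11, 6.92 and 8.53 CPM in the hPARG dishes. The hPARG values lay inside the control range, and the log2 fold change was 0.04 (standard error 0.186). Nmnat2 (ENSMUSG00000042751, chromosome 1, 152954993 to 153119261), best known for keeping axons intact, had 25, 34 and 28 counts in control and 40, 27 and 25 in hPARG dishes. At these counts the error is the largest among the tested members: the log2 fold change was 0.12 and its standard error 0.312. Nmnat3 (ENSMUSG00000032456, chromosome 9, 98287435 to 98420438) had 1 count in control dish 3 and 0 in the other 5 dishes, all at or under the floor of 3 counts, so no fold change is given. A level below about 0.14 CPM cannot be told from 0 at this depth. Within the summed RPKM of the 3 genes, Nmnat1 held 90.2% ± 2.69 in control and 90.1% ± 2.40 in hPARG dishes (SD, n = 3), and Nmnat2 nearly all of the rest.

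Other precursors enter through Nmrk1 and Naprt. Nmrk1 (ENSMUSG00000037847, chromosome 19, 18631950 to 18652428), which phosphorylates nicotinamide riboside, was at 7.73, 6.54 and 9.90 CPM in the control dishes and at 8.39, 8.12 and 8.67 CPM in the hPARG dishes. The control dishes spread more widely (SD 1.70) than the hPARG dishes (SD 0.276), which lay between them, and the log2 fold change was 0.06 (standard error 0.167). Naprt (ENSMUSG00000022574, chromosome 15, 75890956 to 75894481), which starts the route from nicotinic acid, had 5, 1 and 9 counts in control and 12, 2 and 5 in hPARG dishes. It failed the filter on low counts and was not tested, and both dishes numbered 2 held counts at or under the floor. Exons of Eef1d cover 11.8% of its exon sequence on the same strand, and Eef1d had 7767 to 10551 counts per dish, so part of these few counts may belong to either gene. The other 9 genes shared no exon base (0) with another annotated gene.

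Nadsyn1 (ENSMUSG00000031090, chromosome 7, 143795584 to 143822849) adds the amide that completes NAD on the nicotinic acid and de novo routes. Its level was 3.32, 3.66 and 3.87 CPM in the control dishes, beside 4.401, 4.04 and 3.76 CPM in the hPARG dishes. The hPARG dishes 1 and 2 lay above all control dishes and hPARG dish 3 lay among them. Its log2 fold change of 0.17 (standard error 0.16, 95% interval -0.20 to 0.54) was the largest of the tested members and remained positive in all 15 alternative analyses, from 0.11 to 0.23, without passing the threshold in any. Nampt exceeded Nadsyn1 in RPKM by 17.6 to 22.3 times in control and 14.8 to 20.8 times in hPARG dishes, ranges that overlap.

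Nadk (ENSMUSG00000029063, chromosome 4, 155562378 to 155591001), the cytosolic NAD kinase, was the steadiest gene of the group. It measured 167, 170 and 172 CPM in control dishes against 165, 168 and 169 CPM in hPARG dishes, with means of 170 ± 2.76 and 167 ± 2.38 CPM (SD, n = 3). All 6 dishes lay within 0.04 of their mean on the log2 scale, the dishes numbered 2 included, and the log2 fold change was -0.02 (standard error 0.0855). Nadk2 (ENSMUSG00000022253, chromosome 15, 9071260 to 9110891), the mitochondrial NAD kinase, measured 48.9, 52.4 and 45.7 CPM in control dishes against 54.4, 47.3 and 43.85 CPM in hPARG dishes. Its highest and its lowest value were both in hPARG dishes, and the log2 fold change was -0.01 (standard error 0.116). Of the summed RPKM of both kinases, Nadk held 79.4% ± 1.24 in control and 79.3% ± 2.04 in hPARG dishes (SD, n = 3).

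Nnmt (ENSMUSG00000032271, chromosome 9, 48591877 to 48605153), which spends a methyl group of S-adenosylmethionine on nicotinamide, measured 19.1, 13.5 and 22.4 CPM in control dishes against 22.9, 14.4 and 22.7 CPM in hPARG dishes. Both dishes numbered 2 lay far below the others, and the difference between dishes of a group was larger than that between groups. Means were 18.3 ± 4.51 and 20.02 ± 4.85 CPM (SD, n = 3), and the log2 fold change was 0.13 (standard error 0.234). Without the dishes numbered 2 the log2 fold change was 0.14 (standard error 0.116, FDR = 0.888). The CPM values of the groups then no longer overlapped for Nnmt alone among the 8 members, as for 35.4% of tested genes with 2 dishes a group.

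**Figure D3:**
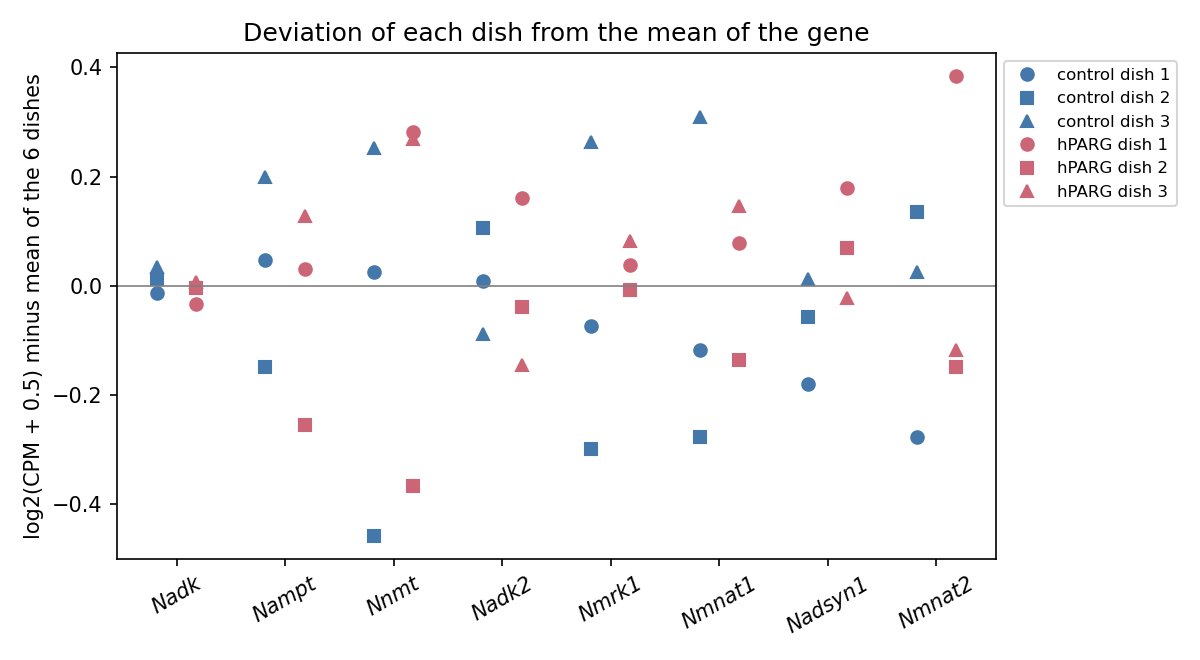
For the 8 tested genes, log2(CPM + 0.5) of each dish is plotted (y axis) as the difference from the mean of the gene over 6 dishes, with a marker for each dish number. Both dishes numbered 2 (squares) are lowest for Nampt and Nnmt, down to -0.46 in control dish 2 for Nnmt, and all dishes of Nadk lie close to 0.

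The pattern of Nampt over the 6 dishes was closest to those of Bzw1, Btf3l4 and Bud23, with root mean square differences of 0.0168, 0.0187 and 0.0211 on the centred log2 scale. For Nnmt the closest were Serpinb6a, Zfyve21 and Use1, with differences of 0.0246, 0.0258 and 0.0273. These 6 genes were picked on the same 6 dishes, which fixes that they share the low dishes numbered 2 and a small difference between the groups.

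A further 44 genes were placed in 5 hand-written lists. These cover de novo synthesis, other salvage and turnover, carriers and repair, NADPH-forming enzymes and the methyl donor cycle, so not all are genes of NAD metabolism itself. Of the 44, 43 were analysed and 27 tested. By edgeR without the block 0 of the 27 were called, where 0.0869% of all tested genes were. DESeq2 called 0 of the 27 and 52 genes in all. At an unadjusted p under 0.05 there was 1 gene of the 27 by edgeR without the block, beside 455 of all 11509. The values of the groups separated for 1 gene (3.70%), beside 9.62% of all tested genes. With the replicate block 2 of the 27 were called (Slc29a1 and Aldh1l2), where 2.87% of all tested genes were. Nnt, the mitochondrial transhydrogenase, was not analysed here.

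The de novo route from tryptophan was hardly represented in the counts. Among the 9 genes listed under this route, only Afmid, which removes the formyl group from formylkynurenine, was tested. Its control dishes were at 10.2 ± 1.35 CPM and its hPARG dishes at 10.7 ± 1.30 CPM (SD, n = 3). On the log2 scale this is a difference of 0.07 (standard error 0.149). The other 8 genes, from the tryptophan dioxygenases Tdo2, Ido1 and Ido2 to Qprt, which makes the nicotinic acid mononucleotide of this route, held between 0 and 4 counts per dish all together. Ido1 and Ido2 had 0 counts in every dish, and Qprt had 1 count in hPARG dish 1, 2 in hPARG dish 3 and 0 in the others. No gene of these 8 exceeded 3 counts in any dish.

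The list of other salvage, precursor handling and NAD turnover held 15 genes, of which 8 were tested. These 8 had 2 positive and 6 negative log2 fold changes and a median of -0.16. Slc29a1, an equilibrative nucleoside transporter, measured 105, 110 and 110 CPM in control dishes against 93.6, 91.8 and 90.7 CPM in hPARG dishes. The groups did not overlap, and the log2 fold change was -0.24 (standard error 0.0865, FDR = 0.999). It was called only with the replicate block (FDR = 0.0449), in which it was lower by the same -0.24. Nt5e, the ectoenzyme CD73, had 29, 6 and 3 counts in control and 6, 11 and 10 in hPARG dishes, so that 1 control dish held the highest value and the difference has no firm direction (log2 fold change -0.41, standard error 0.726). Cd38, a major NAD-consuming ectoenzyme of leukocytes, had 3 counts in control dish 3 and 0 in the other dishes.

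In the list of carriers and repair enzymes, 4 genes were tested. Slc25a51, which carries NAD into mitochondria, averaged 106.5 ± 6.97 CPM in control and 105 ± 8.01 CPM in hPARG dishes (SD, n = 3), and its log2 fold change was -0.02 (standard error 0.104). The NADHX repair enzymes Naxd and Naxe had log2 fold changes of 0.08 (standard error 0.188) and 0.25 (standard error 0.225). With the replicate block the standard errors were 0.0709 (FDR = 0.597) and 0.0719 (FDR = 0.0953), and neither gene was called. Without the dishes numbered 2, Naxe had a log2 fold change of 0.29 (95% interval 0.05 to 0.52, FDR = 0.566).

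The list of NADPH-forming enzymes, which use the NADP that Nadk and Nadk2 make, held 10 genes. Not every folate enzyme in it need form NADPH. Of the 10 genes, 9 were tested, with a median log2 fold change of -0.01 and values from -0.14 to 0.33. The highest was Aldh1l2, a mitochondrial folate enzyme, with 81.5, 109 and 89.0 CPM in control dishes against 103, 140 and 109 CPM in hPARG dishes. Its groups overlapped in the values and the dishes numbered 2 were the highest of each group. The log2 fold change of 0.33 (standard error 0.158) was not called without the block (FDR = 0.999) and was called with it (0.33, standard error 0.0553, FDR = 0.0081). Of the 5 genes of the methyl donor cycle, on which Nnmt draws, all 5 were tested, with log2 fold changes between -0.05 and 0.05. Mat2a, which makes S-adenosylmethionine, averaged 298 ± 49.5 CPM in control against 291 ± 36.3 CPM in hPARG dishes (SD, n = 3).

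**Figure D4:**
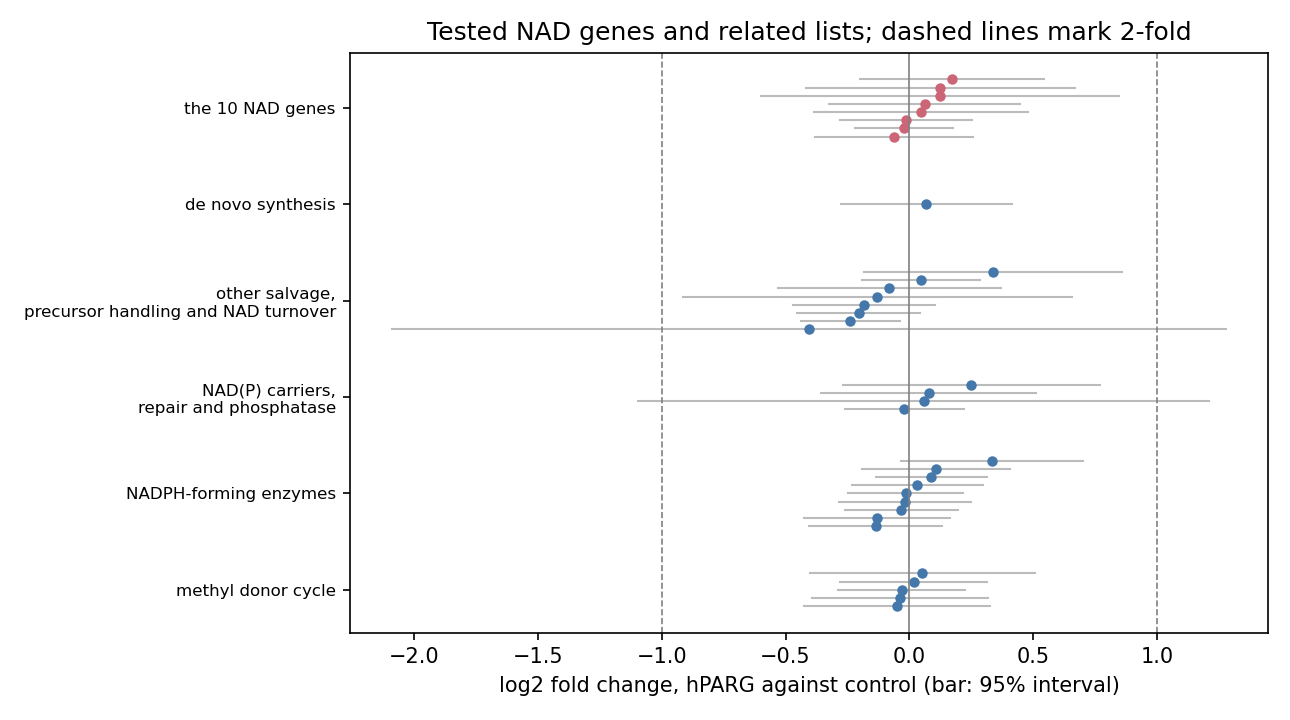
Log2 fold changes of hPARG against control (x axis) with 95% intervals (grey bars) are plotted for each tested gene of the 10 NAD genes (red) and of 5 related lists (blue), 1 gene per row. The red points lie between -0.06 and 0.17, and the only grey bar that does not cross 0 is that of Slc29a1 (-0.44 to -0.04).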

How the data were processed

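RNA-seq counts of 3 control and 3 hPARG samples were analysed. The authors used CLC Genomics Workbench 12.0 to trim adapters from the read pairs and map them to GRCm38 with Ensembl 96 genes. The deposited counts per gene carry no normalization, and the deposited RPKM values were divided by the authors' software by gene length and by a library total that is not stated. Use of strand in counting is not given in the sources used here. The authors' own fold changes and p-values in the table were not used, nor were their CPM and TPM columns. Coordinates and exon lengths come from GENCODE release M21, of the same build.

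Genes were kept with filterByExpr (minimum count 10), scaled with TMM factors and tested in edgeR 4.0.16 under R 4.3.3 (glmQLFit, then glmQLFTest) without a block, with Benjamini-Hochberg adjustment over 11509 genes and a threshold of 0.05. Each standard error is the size of the log2 fold change over the root of its F statistic, and 95% intervals used the t distribution with the degrees of freedom of the fit. CPM values were TMM-scaled counts. Intervals and floors cover the spread of these dishes and counting error only, as the sources name no molecular identifiers. DESeq2 1.42.0, RLE factors, library size, other filters, a gene length offset (spline, 4 degrees of freedom), the replicate block and omission of dishes were the alternatives, and exon lengths of GENCODE were an alternative chosen after seeing the data.

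The text names the 10 members, the genes of the other lists that passed the FDR in either model, Qprt, Slc25a51, Naxd, Naxe, Nt5e and Mat2a, and the 3 genes nearest in pattern to Nampt and to Nnmt. Afmid, Tdo2, Ido1, Ido2 and Cd38 were named after their values were seen. Members and lists were chosen with earlier results of these data known.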

Additional observations from a re-analysis of the deposited data

How the results depend on the processing

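No member was called (0) in any of the 15 alternatives. The number of called genes over the whole table was 10, and it moved to 330 with the replicate block, 365 with the block and the gene length offset, 28 with the offset alone, 52 with DESeq2, 16 with no filter on low counts and 40 without both dishes numbered 2. With 1 dish left out it lay between 3 (without hPARG dish 1, beside 5 without hPARG dish 3) and 13. Genes called in the related lists went from 0 to 2 of the 27 tested with the replicate block, alone or with the length offset. They were 0 with each dish left out. Same-numbered dishes deviated together with r = 0.0963, 0.61 and 0.168 for numbers 1, 2 and 3, so the numbers were not taken as pairs, and dishes 1 and 3 did not correlate best with their own number.

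Of the 8 tested members, 6 changed the sign of a difference near 0 in at least 1 alternative, and Nadk and Nadsyn1 in none (0). With 1 dish left out, log2 fold changes lay from -0.148 to 0.041 for Nampt, -0.079 to 0.242 for Nmnat1, -0.145 to 0.253 for Nmnat2, -0.067 to 0.232 for Nmrk1, -0.104 to 0.054 for Nadk2 and -0.053 to 0.315 for Nnmt. Without both dishes numbered 2, Nmrk1 turned to -0.038 and Nadk2 to 0.059, and 1 member (Nnmt) no longer overlapped between groups. The number of members above 1 RPKM was 7 under both other length scalings. Depth limits Nmnat3 and Naprt, for which no change of any size can be stated.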
